A study of Mus musculus with 16 samples.

Results

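Cisplatin was compared with its PBS vehicle in Pros1-deficient melanoma tumours, in 8 of the 16 RNA sequencing libraries of the series, chosen by genotype and treatment as the labels give them. The tumours grew from B16F10, a mouse melanoma line, in a Pros1-deficient form named BdP, which another label calls a Pros1 knockdown. The labels do not say whether BdP is 1 clone. Each C57BL/6J mouse, aged 8 weeks and of either sex, carried 100000 implanted cells under the skin of the right flank. Treatment started on day 8. The 4 cisplatin tumours received 5 mg/kg into the peritoneum daily for 3 days in each of 2 rounds, and the 4 PBS tumours received the vehicle. Tumours were taken at end stage and disaggregated before lysis. Wild-type (WT) B16F10 tumours under the same treatments, 4 libraries each, serve below for the difference between genotypes. The labels do not say how the replicates arose beyond their numbers, so p-values measure the spread between these samples.

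Cisplatin binds DNA and joins neighbouring bases, and cells meet such crosslinks with the Fanconi anaemia, homologous recombination and nucleotide excision pathways. Damage signalling stabilises p53, a transcription factor that turns on genes of cell cycle arrest (Cdkn1a), of apoptosis (Bax, Bbc3) and of its own feedback (Mdm2). Pros1 encodes protein S, a cofactor of the anticoagulant protein C that also binds Tyro3 and Mertk. Together with Axl these are the TAM receptors, through which macrophages take up dying cells and restrain inflammation.

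Reads assigned to genes ran from 18226985 to 27055771 in the 8 BdP libraries, and mitochondrial transcripts took 2.53% to 5.06% of them. Melanocyte markers were high in all 8, with Mlana at 614 to 907 FPKM (the authors' unit, fragments per kilobase scaled for depth), while the keratinocyte keratins Krt5 and Krt14 were at 0 in all 8. Haemoglobin took 1.19% to 5.16% of reads in the PBS tumours and 0.00247%, 0.00199%, 6.46% and 0.152% in cisplatin 1 to 4. Ptprc, the pan-leukocyte gene of CD45, ranged from 2.03 to 20.9 FPKM under PBS and from 2.82 to 14.6 FPKM under cisplatin. Host sex did not divide the treatments, since Xist was at 2.73 to 5.17 FPKM in PBS 1 and 2 and cisplatin 3 and 4, and at most 0.0290 FPKM in the other 4. Pearson's r of log2(FPKM + 1) over genes ran from 0.912 to 0.97 between groups (median 0.949) and from 0.916 to 0.974 within them (median 0.951). In bulk tumours fewer cells of a type and less RNA per cell cannot be told apart, which holds for every marker gene below. The WT libraries were less even. Mitochondrial transcripts took 76.9% of reads in WT PBS 1, 12.2% in WT cisplatin 3 and 21.7% in WT cisplatin 4. They took 2.03% to 3.74% in the other WT libraries. The WT values, the genotype difference and the standard errors below use all of them unless a library is said to be left out.

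No gene passed the test between cisplatin and PBS among the 12319 genes with at least 1 FPKM in 4 or more of the 16 libraries. Limma on log2(FPKM + 1), with Benjamini-Hochberg adjustment, called 0 genes (0% of those tested), against 542 at an unadjusted p below 0.05, of which 266 were higher and 276 lower with cisplatin. Voom on reads recovered from the table, an alternative added after seeing the data, also called 0, with 768 unadjusted. All log2 fold changes below are cisplatin minus PBS on the log2(FPKM + 1) scale, which understates genes of low level, and their errors are moderated standard errors. The median gene had a standard error of 0.17 and a 95% interval reaching 0.36 either side before adjustment over genes. All 4 cisplatin libraries lay above all 4 PBS libraries for 305 genes (2.48%) and below them for 239 (1.94%). Such separated genes are named below as descriptions on the deposited FPKM scale. The separation depends on the scaling: 245 of the 305 and 182 of the 239 held after TMM scaling, but 34 and 29 in TPM, where the factor between the scales was smallest in PBS 2 and cisplatin 3 (2.36 in both), the libraries with the most haemoglobin reads. Of the genes described below, Tubb3, Mnd1, Adm, Ddit4, Pros1, Procr, Hsph1, Hspa1b, Brca1, Klf4, Igha, Trpm1, Cbr2 and Igsf8 were separated in TPM as well; no gene of the p53, unfolded protein response, mitotic or oxidative phosphorylation lists was. For a single gene separation gives an exact two-sided permutation p of 0.0286, the smallest that 70 splits of 4 against 4 allow, before any adjustment over genes.

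**Figure D1:**
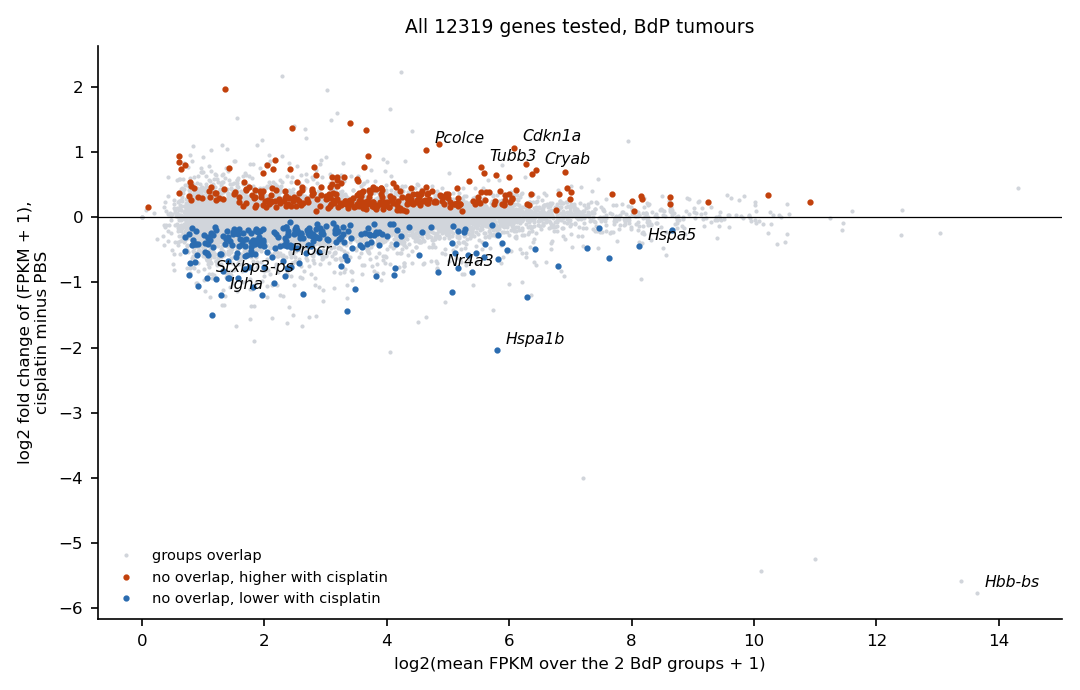
Each point is a gene: the horizontal axis is log2(mean FPKM of both BdP groups + 1) and the vertical axis its log2 fold change, cisplatin minus PBS. Red marks the 305 genes whose 4 cisplatin libraries all lie above the PBS libraries and blue the 239 whose libraries all lie below; the haemoglobin gene Hbb-bs, at -5.77, overlaps between groups.

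Of the whole table, the smallest p belonged to low-level sequences. Stxbp3-ps is a pseudogene, and whether its reads came from its parent gene was not tested. It measured 1.57, 1.95, 1.90 and 1.58 FPKM under PBS and 0.579, 0.515, 0.311 and 0.361 FPKM under cisplatin (log2 fold change -0.93, adjusted p = 0.0839 by limma). Among protein-coding genes with at least 5 FPKM in the higher group, the 12 of smallest p in each direction were all far from the threshold (adjusted p from 0.524 to 1 by limma).

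The higher genes among those 24 were led by Tubb3, the neuronal class III beta-tubulin (ENSMUSG00000062380, chromosome 8 from 123411424 to 123422015, GRCm38). Tubb3 measured 31.2, 30.6, 36.2 and 35.6 FPKM under PBS and 70.4, 66.9, 50.3 and 45.3 FPKM under cisplatin. No cisplatin library was as low as the highest PBS library, and the log2 fold change was 0.76 ± 0.17 (95% interval 0.41 to 1.12, adjusted p = 0.773 by limma). Pcolce, an enhancer of procollagen processing, measured 19.6, 14.3, 16.4 and 11.3 FPKM under PBS and 43.2, 33.9, 24.1 and 29.7 FPKM under cisplatin, which is 1.04 ± 0.24. Mnd1, which works with Hop2 in meiotic strand exchange, stood at 0.74 ± 0.18. Cryab, the small heat shock protein alpha-B crystallin, measured 70.3, 64.6, 66.3 and 55.5 FPKM under PBS and 114, 116, 85.4 and 113 FPKM under cisplatin. Every cisplatin library was higher (0.72 ± 0.17). Mitochondrial proteins followed: Immt, an organiser of cristae (0.30 ± 0.09), Hadha, the alpha subunit of the trifunctional protein of fatty acid oxidation (0.34 ± 0.10), and Got2, the mitochondrial aspartate aminotransferase (0.42 ± 0.12). These were small differences with little spread: Hadha lay between 24.2 and 25.3 FPKM under PBS and between 29.8 and 33.1 FPKM under cisplatin. Hip1, an endocytic clathrin adaptor (0.56 ± 0.17), Fam216a (0.61 ± 0.16) and 1810055G02Rik (0.40 ± 0.11) complete the list with Adm and Cdkn1a, described below.

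Procr, the endothelial protein C receptor, had the smallest p of the lower coding genes (ENSMUSG00000027611, chromosome 2 from 155751117 to 155755471). It measured 6.17, 4.24, 4.67 and 5.34 FPKM under PBS and 2.51, 2.56, 3.28 and 2.86 FPKM under cisplatin. The groups were apart, and the log2 fold change was -0.68 ± 0.14 (95% interval -0.97 to -0.39, adjusted p = 0.524 by limma). In WT tumours the same gene was at -0.64 ± 0.14 with cisplatin. Also lower were Slc25a33, a mitochondrial pyrimidine nucleotide carrier (-0.44 ± 0.11), E2f5, a repressor of the E2F family (-0.59 ± 0.16), and Cbr2, a carbonyl reductase (-1.10 ± 0.30). Klf11 (-0.70 ± 0.19) and Nr4a3 (-0.84 ± 0.23), both transcription factors, Igsf8 (-0.58 ± 0.16), Arfrp1 (-0.42 ± 0.12) and Gm21887 (-1.43 ± 0.37) were lower as well. Gm21887 rested on a spread of 6.00 to 29.4 FPKM among the PBS tumours. The chaperones Hsph1, Hspa5 and Hspa1b complete the 12.

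**Figure D2:**
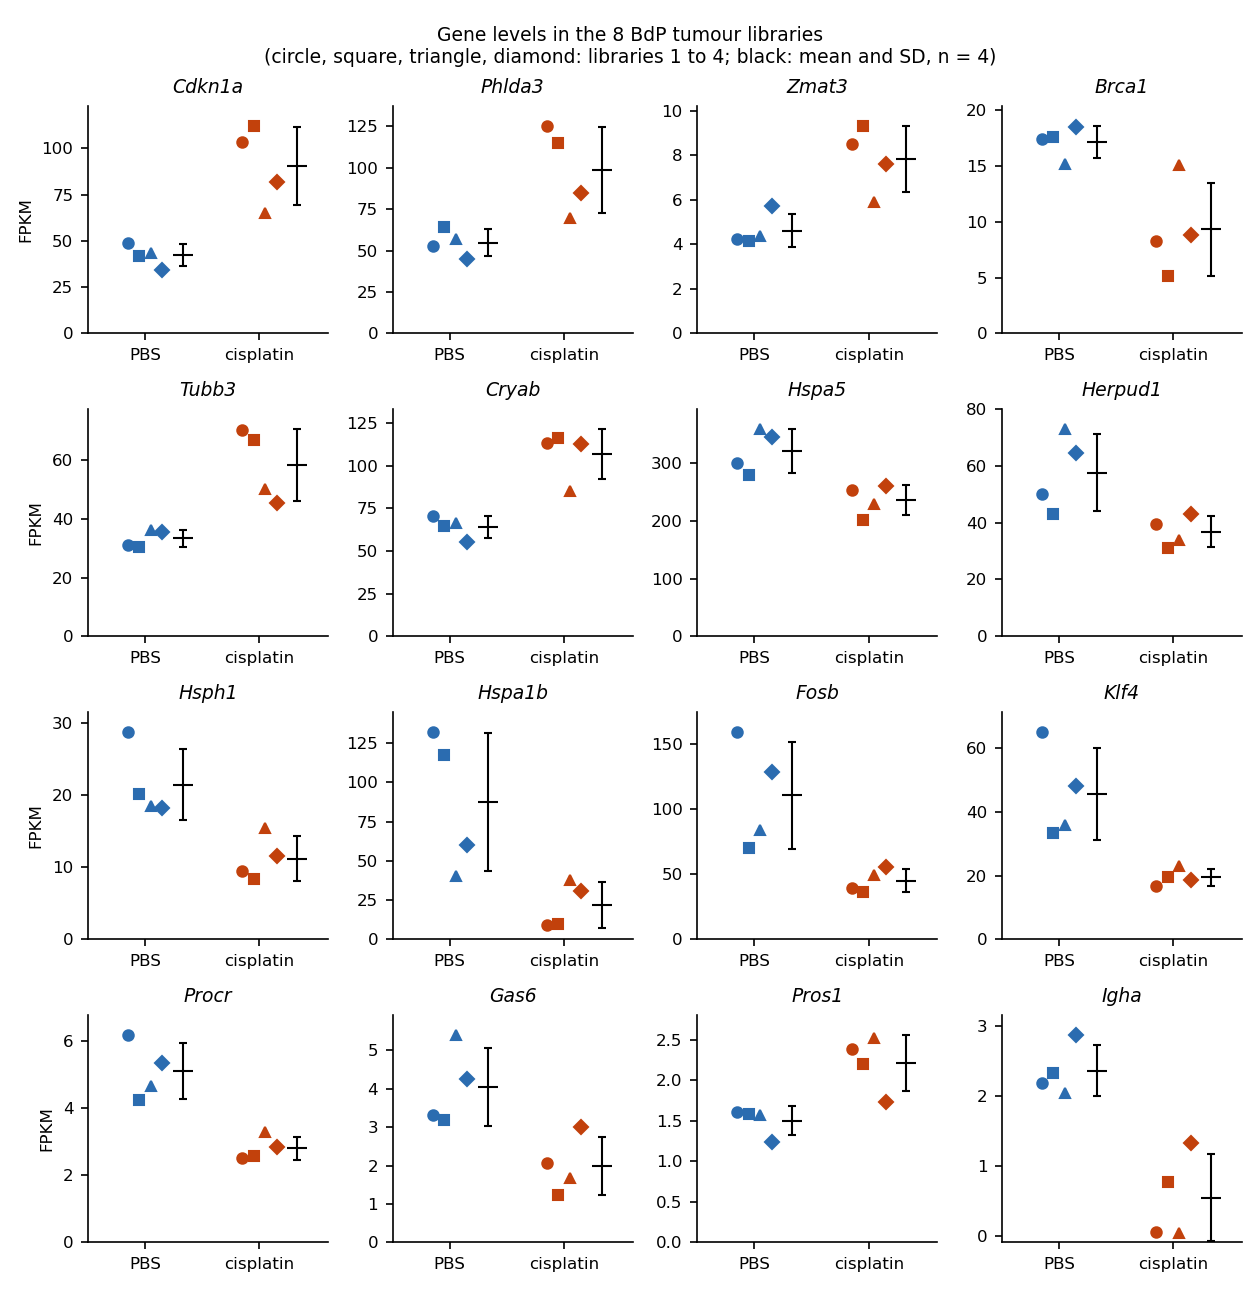
FPKM of 16 named genes in the 4 PBS and 4 cisplatin libraries of BdP tumours, with the mean and SD (n = 4) in black; circle, square, triangle and diamond mark libraries 1 to 4, and each axis has its own range. In each of these genes the 4 cisplatin libraries lie on 1 side of the 4 PBS libraries.

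A few p53 targets were separated upward with cisplatin, led by Cdkn1a, and most were not. Of 32 listed targets 30 could be tested; 5 were separated upward and 1 downward, against 2.48% and 1.94% of all genes, and 0 of 30 passed the limma test. Cdkn1a, the cyclin-dependent kinase inhibitor p21 (ENSMUSG00000023067, chromosome 17 from 29090976 to 29100727), had the largest difference. It measured 48.8, 41.7, 43.6 and 34.5 FPKM under PBS and 103, 112, 65.1 and 81.7 FPKM under cisplatin. Every cisplatin tumour was above every PBS tumour, the mean was 2.15-fold higher, and the log2 fold change was 1.07 ± 0.28 (95% interval 0.47 to 1.66, unadjusted p = 0.00176, adjusted p = 1 by limma). Cisplatin 3 was the lowest of its group. The pro-apoptotic Phlda3, an inhibitor of Akt, also had its lowest cisplatin value in cisplatin 3 and no overlap, with 52.9, 64.01, 57.1 and 44.8 FPKM under PBS and 125, 115, 69.7 and 84.8 FPKM under cisplatin (0.81 ± 0.27). Ccng1, cyclin G1, a feedback target, measured 37.4, 48.2, 36.7 and 42.5 FPKM under PBS and 84.9, 97.7, 43.95 and 75.4 FPKM under cisplatin. Its groups overlapped through cisplatin 3 alone, and the difference was 0.81 ± 0.26.

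The RNA-binding Zmat3 was separated too, at 4.24, 4.16, 4.38 and 5.70 FPKM under PBS and 8.52, 9.31, 5.89 and 7.63 FPKM under cisplatin (0.65 ± 0.36). Tnfrsf10b, the death receptor for TRAIL (0.42 ± 0.18), and Ei24 (0.22 ± 0.23) were the other separated targets. The spindle protein Gtse1 (0.63 ± 0.25) and the reductase Dcxr (0.40 ± 0.16) had an unadjusted p below 0.05 with overlapping groups. Central targets showed little difference: Mdm2, the ubiquitin ligase of p53, stood at -0.10 ± 0.19, the BH3-only gene Bbc3 at 0.00 ± 0.25, Bax at 0.21 ± 0.14 and the repair genes Xpc and Ddb2 at 0.01 ± 0.11 and -0.08 ± 0.27. Gdf15, a secreted stress cytokine, ran the other way. It measured 18.3, 8.13, 10.6 and 7.72 FPKM under PBS and 5.35, 5.27, 7.16 and 5.97 FPKM under cisplatin, with PBS 1 the highest and no overlap (-0.74 ± 0.54). By role, the median was 0.22 over 10 genes of arrest and feedback, 0.21 over 10 of apoptosis and 0.07 over 10 of repair and metabolism. The median of all 30 was 0.09, with 19 above 0, beside -0.0028 over all genes tested. It was 0.00706 without cisplatin 2, 0.058 without PBS 3, 0.144 without cisplatin 1, 0.15 without PBS 2, and 0.166 in TPM. In WT tumours the median was 0.26 and Cdkn1a was at 0.57 ± 0.28. The Cdkn1a responses of the genotypes were not shown to differ (interaction adjusted p = 0.864 by limma).

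DNA repair genes had differences near 0, with 1 exception. Among 39 tested genes of crosslink and excision repair 20 were above 0 and 19 below, with a median of 0.00165. Brca1, which acts in homologous recombination, was the exception and measured 17.4, 17.6, 15.1 and 18.5 FPKM under PBS and 8.27, 5.13, 15.1 and 8.85 FPKM under cisplatin. Cisplatin 3 lay just under the lowest PBS library (both 15.1 after rounding) and the other 3 cisplatin tumours far under it (-0.89 ± 0.34, adjusted p = 1 by limma). Its partners had values near 0: Brca2 was at 0.06 ± 0.12 and Brip1 at -0.06 ± 0.14. Fancd2, the monoubiquitinated core of the Fanconi pathway, stood at 0.16 ± 0.16. Xpa and Ercc1 of nucleotide excision were at 0.15 ± 0.16 and 0.07 ± 0.19, and Polh, the translesion polymerase that copies past platinum adducts, at 0.19 ± 0.11. The 24 tested genes of platinum transport and detoxification had a median of 0.000251, none separated, and the 15 of the Bcl2 family -0.05, which turned to 0.0814 without PBS 1 and 0.101 without PBS 2.

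Most mitotic genes had small positive differences, and 0 of 34 passed the limma test. Of the 34, all tested, 30 were above 0 with a median of 0.17, and 5 were separated upward, beside 2.48% of all genes, and 0 downward; after TMM scaling 2 were separated. Library means overlapped, from 3.34 to 3.66 under PBS and from 3.59 to 3.74 under cisplatin, with PBS 3 above 3 of the cisplatin libraries. Plk1, the polo-like kinase of mitotic entry, measured 17.96, 17.2, 21.9 and 21.1 FPKM under PBS and 32.1, 24.7, 24.7 and 23.3 FPKM under cisplatin (0.40 ± 0.13). Cdc25c, the phosphatase that activates Cdk1, measured 3.58, 5.58, 7.79 and 6.77 FPKM under PBS and 10.1, 9.52, 8.95 and 8.73 FPKM under cisplatin (0.61 ± 0.23). Neither gene had a cisplatin library within the PBS range. The kinase Aurka (0.29 ± 0.14), the spindle factor Tpx2 (0.25 ± 0.10) and the kinesin Kif2c (0.34 ± 0.14) were separated as well, and the kinesin Kif20a, at 0.56 ± 0.17, was not. Of the other proliferation genes Mki67 stood at 0.06 ± 0.17 and Top2a at -0.02 ± 0.13. DNA replication genes were below 0 in 22 of 35, with a median of -0.04, which turned to 0.00519 in TPM, and none separated. Within that list the subunits of ribonucleotide reductase Rrm1 and Rrm2 were at 0.20 ± 0.10 and 0.29 ± 0.13, while Pcna was at -0.16 ± 0.14. Among tubulins 9 of 11 were above 0, with Tubb3 far beyond the next (Tubb4b, 0.40 ± 0.23) and Tubg1, the gamma-tubulin of centrosomes, separated at 0.20 ± 0.14. The tubulin median of 0.13 was 0.0734 without PBS 1, 0.0524 without PBS 4, 0.242 without PBS 2 and 0.199 without cisplatin 4.

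Most nuclear genes of oxidative phosphorylation had small positive differences. Of 38 tested 37 were above 0, with a median of 0.17. After TMM scaling 7 were separated upward, and in TPM 0. On the deposited scale 5 were separated upward, beside 2.48% of all genes. These were Uqcrc1 of complex III (0.35 ± 0.14), Ndufs3 of complex I (0.31 ± 0.15), Sdha of complex II (0.19 ± 0.10), and Atp5b and Atp5a1, the catalytic beta and the alpha subunit of ATP synthase (0.21 ± 0.11 and 0.30 ± 0.19). Atp5b measured 358, 400.2, 383 and 320.3 FPKM under PBS and 454, 400.4, 430.2 and 402 FPKM under cisplatin. Medians by complex were 0.15 for complex I, 0.21 for complex II, 0.13 for complex III, 0.16 for complex IV and 0.20 for ATP synthase. The list median was 0.0834 without PBS 4. Library means overlapped, from 6.29 in PBS 4 to 6.72 in PBS 2 and from 6.66 to 6.79 under cisplatin. The 13 messenger RNAs of the mitochondrial genome, which encode further subunits of the same complexes, were below 0 in 12 cases with a median of -0.23, which was -0.0377 without cisplatin 1, -0.0631 without PBS 4, -0.378 without cisplatin 3 and -0.477 without PBS 1.

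Genes of hypoxia and glycolysis were higher for 28 of 34, with a median of 0.17. Of the 34, 8 were separated upward and 1 downward, beside 2.48% and 1.94% of all genes. After TMM scaling 6 were separated upward, and in TPM 4. Adm, the vasodilator adrenomedullin, measured 37.9, 34.4, 39.9 and 31.8 FPKM under PBS and 55.2, 52.2, 67.1 and 59.5 FPKM under cisplatin (0.68 ± 0.17, adjusted p = 0.920 by limma). Ddit4, an inhibitor of mTORC1 that stress and hypoxia induce, measured 38.7, 45.9, 48.8 and 35.1 FPKM under PBS and 64.6, 64.8, 74.6 and 60.6 FPKM under cisplatin (0.65 ± 0.21). Both genes had all 4 cisplatin tumours above the PBS tumours. The glycolytic enzymes Aldoc (0.56 ± 0.19), Eno1 (0.34 ± 0.15), Gpi1 (0.28 ± 0.13), Pgk1 (0.24 ± 0.16) and Pgam1 (0.23 ± 0.15) were separated by smaller amounts. Of these enzymes Eno1, Pgk1 and Pgam1 overlapped after TMM scaling. Other targets of HIF were near 0: Vegfa was at 0.02 ± 0.22, Car9 at 0.04 ± 0.14 and Egln3 at 0.00 ± 0.41. P4ha2, a collagen prolyl hydroxylase, was the separated lower gene (-0.45 ± 0.14). Gapdh spread from 4.74 to 119 FPKM in PBS tumours, a gene with many processed copies, so its value of -1.61 ± 1.41 is uncertain.

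**Figure D3:**
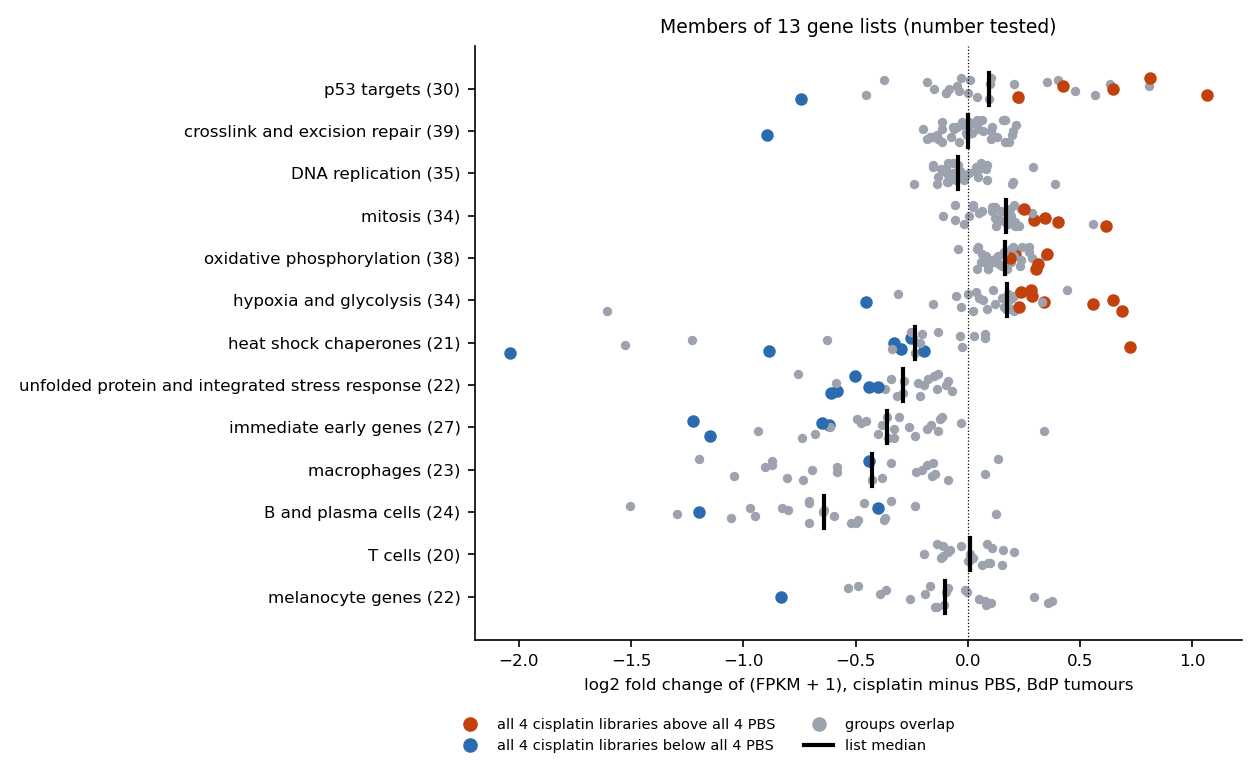
Each point is 1 tested gene of 13 lists, placed by its log2 fold change of (FPKM + 1), cisplatin minus PBS in BdP tumours; red and blue mark genes separated upward and downward, grey overlapping groups, and the bar the list median. All 22 genes of the unfolded protein and integrated stress response lie below 0, 37 of 38 oxidative phosphorylation genes lie above it, and the repair genes centre on 0.

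Genes of the unfolded protein response had negative differences with cisplatin, and 0 of 22 passed the limma test. This response meets misfolded protein in the endoplasmic reticulum (ER) through the sensors IRE1, PERK and ATF6, and raises ER chaperones and, by way of ATF4, amino acid and redox genes. All 22 tested genes of 23 listed were below 0, with a median of -0.29. Of these 5 were separated downward and 0 upward, against 1.94% and 2.48% of all genes. After TMM scaling 4 were separated downward and Herpud1 overlapped, and in TPM 0 were separated. Hspa5, the ER chaperone BiP (ENSMUSG00000026864, chromosome 2 from 34771970 to 34777547), measured 301, 279, 359 and 346 FPKM under PBS and 253, 202, 230.3 and 261 FPKM under cisplatin. The PBS tumours were all higher, and the log2 fold change was -0.44 ± 0.11 (95% interval -0.68 to -0.19, adjusted p = 1 by limma). Herpud1, a factor of ER-associated degradation, measured 49.98, 42.95, 72.8 and 64.3 FPKM under PBS and 39.5, 31.01, 34.003 and 42.9 FPKM under cisplatin. Its lowest PBS library, PBS 2, was just above cisplatin 4 (-0.61 ± 0.21).

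The separated genes also included Xbp1, the transcription factor that IRE1 splices (-0.40 ± 0.15), and the cochaperones Dnajb9 (-0.59 ± 0.25) and Sdf2l1 (-0.50 ± 0.26). Chaperones of the ER had a median of -0.37 over 11 genes, and the ATF4 arm -0.285 over 11, with none separated there. In that arm Chac1, which degrades glutathione, stood at -0.76 ± 0.22, Atf4 itself at -0.29 ± 0.19, Ddit3 at -0.22 ± 0.25 and Asns, the asparagine synthetase, at -0.21 ± 0.24. Library means of log2(FPKM + 1) over the 22 genes ran from 5.32 to 5.77 under PBS and from 5.04 to 5.34 under cisplatin. They overlapped at 1 pair, since cisplatin 1 was marginally above PBS 2. The sign of the median was kept in all 24 alternatives, and the median was -0.18 without PBS 3. Some of the 24 could not change it: omission of a WT library, the replicate block and the fit on the 8 BdP libraries. Per gene, Hspa5 differed in WT tumours by -0.09 ± 0.11 (interaction adjusted p = 0.835 by limma), and the WT list median was -0.18.

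The promoters of these genes are shown because ER chaperone genes are known to carry the ER stress element, a box of CCAAT, 9 bases and CCACG bound by NF-Y and ATF6. The letters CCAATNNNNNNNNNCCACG were searched on both strands of 250 bases before to 50 after each gene start, in RefSeq sequence of GRCm38.p6. They were present in 37 of 27025 promoters (0.137%), in 16 of 8884 tested genes with a promoter (0.18%), and in 5 of the 22 list members (22.7%). Of the genes separated downward 183 had a promoter in the table and 2 held the element (1.09%), Hspa5 and Creld2, and of 230 separated upward 0 did. The element is in capitals, between its 5 neighbouring bases on each side, 5′ to 3′ on the strand named.
Hspa5 (chr2:34772020-34772048, plus strand): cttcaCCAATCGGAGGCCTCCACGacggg
Creld2 (chr15:88819515-88819543, minus strand): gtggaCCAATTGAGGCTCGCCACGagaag
Pdia6 (chr12:17266486-17266514, plus strand): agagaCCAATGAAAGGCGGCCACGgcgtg
Calr (chr8:84847070-84847098, plus strand): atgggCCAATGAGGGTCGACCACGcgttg
Dnajc3 (chr14:118937822-118937850, plus strand): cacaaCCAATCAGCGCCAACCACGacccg
Hsp90b1 (chr10:86705633-86705661, minus strand): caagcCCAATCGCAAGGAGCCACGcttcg
Levels beside these elements differed from gene to gene. Creld2, an ER protein looked up after its values were seen, measured 44.8, 48.8, 58.9 and 53.5 FPKM under PBS and 40.1, 27.7, 35.2 and 37.2 FPKM under cisplatin, a difference of -0.55 ± 0.16. Pdia6, a protein disulfide isomerase, was at -0.37 ± 0.14, the calcium-binding chaperone Calr at -0.14 ± 0.11, Dnajc3 at -0.15 ± 0.08 and Hsp90b1, which has another copy of the element in the window, at -0.18 ± 0.17. Herpud1, Xbp1, Dnajb9 and Sdf2l1 did not hold these exact letters in the window. A match is a description of sequence only.

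Heat shock genes, cytosolic and mitochondrial, were mostly below 0 as well, with Cryab the separated exception named above. Of 21 genes 17 were below 0 (median -0.24), 6 were separated downward and 1 upward, beside 1.94% and 2.48% of all genes. After TMM scaling 5 were separated downward, and Hsp90aa1 overlapped. Hspa1b, the inducible HSP70, had the widest difference and measured 132, 117, 40.6 and 60.1 FPKM under PBS and 9.38, 9.77, 37.95 and 31.1 FPKM under cisplatin. PBS 1 and 2 were the highest, the lowest PBS library was just above the highest cisplatin library, and the log2 fold change was -2.04 ± 0.58 (adjusted p = 1 by limma). Hspa1b and Hspa1a are near-identical, so the division of reads between them is uncertain; Hspa1a was at -1.53 ± 0.89 with overlapping groups. Hsph1, the HSP110 nucleotide exchange factor, measured 28.8, 20.2, 18.5 and 18.3 FPKM under PBS and 9.57, 8.41, 15.4 and 11.5 FPKM under cisplatin (-0.89 ± 0.23). Hsf1, the master regulator of these genes, was separated at -0.33 ± 0.14, and so were Hsp90aa1 (-0.20 ± 0.12), Chordc1 (-0.25 ± 0.13) and Dnajb4 (-0.30 ± 0.18). Dnajb1, the cochaperone of HSP70, stood at -0.63 ± 0.21 with overlap, and Hsp90ab1, Hspa4 and the mitochondrial Hspd1 were near 0 (0.03 ± 0.12, 0.08 ± 0.08 and 0.08 ± 0.11). The list median was -0.148 without cisplatin 2.

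The heat shock element, inverted GAA units recognised by HSF1, was searched as 3 units (GAANNTTCNNGAA or TTCNNGAANNTTC, which overlap in longer runs) on both strands of the same promoters. It was present in 179 of all 27025 (0.662%) and in 4 of 16 list members with a promoter (25%). It stood in 3 of 183 genes separated downward (1.64%) and in 3 of 230 separated upward (1.3%). The printed examples are the separated list members that hold it, with the units and the bases between them in capitals. The element of Hsph1 lies after the gene start. That of Chordc1 begins 4 bases before the gene start and runs past it.
Hsph1 (chr5:149636283-149636305, minus strand): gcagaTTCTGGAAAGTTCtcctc
Chordc1 (chr9:18292260-18292288, plus strand): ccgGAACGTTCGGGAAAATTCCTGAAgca
The other members with the element were Hspd1 and Hspe1, neighbouring mitochondrial chaperone genes that share 1 promoter region, and their groups overlapped.

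Immediate early genes, transcription factors and feedback regulators that respond to a stimulus within minutes, were lower in 26 of 27 (median -0.36). Of the list 4 were separated downward and 0 upward, beside 1.94% and 2.48% of all genes. Standard errors pool the spread of all 16 libraries, WT tumours included, and 0 of the 27 had an unadjusted p below 0.05 by limma. Library means of the list had an SD of 0.913 in WT PBS tumours and 0.468 in WT cisplatin tumours. In BdP tumours that SD was 0.398 under PBS and 0.262 under cisplatin. Fosb, an AP-1 subunit, measured 159, 70.1, 84.2 and 128 FPKM under PBS and 39.2, 36.04, 49.3 and 55.5 FPKM under cisplatin. The 4 cisplatin tumours lay close together and below the PBS tumours, which spread over more than their whole range (-1.22 ± 0.80). Klf4, a Krüppel-like factor, measured 64.9, 33.4, 35.9 and 47.9 FPKM under PBS and 16.6, 19.5, 23.03 and 18.5 FPKM under cisplatin (-1.15 ± 0.63). Jun (-0.62 ± 0.49) and Nr4a1 (-0.65 ± 0.45) were the other separated genes. Fos, Egr1 and Dusp1 overlapped, at -0.23 ± 0.52, -0.68 ± 0.63 and -0.13 ± 0.55, and Ier3 was the 1 gene above 0 (0.34 ± 0.25). Library means of the list ran from 4.72 to 5.63 under PBS and from 4.44 to 5.08 under cisplatin, with PBS 1 highest. The median was -0.235 without PBS 1 and -0.561 without PBS 3.

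In WT tumours the same list lay on the other side, at 0.38 with 24 of 27 above 0. That side rests on WT PBS 1, a library with 76.9% mitochondrial reads whose list mean was 2.94 against 4.50 to 5.01 in the other 3. Without it the WT median was -0.121, with 9 of 27 above 0. Single-gene tests of the genotype difference did not pass for Myc (BdP -0.36 ± 0.20, WT 0.59 ± 0.20), Jund (-0.49 ± 0.25 and 0.45 ± 0.25) or Klf6 (-0.45 ± 0.31 and 0.55 ± 0.31), each with an adjusted p of 0.835 by limma. Without WT PBS 1 the WT value was 0.149 for Jund, 0.135 for Klf6 and 0.47 for Myc. The difference for the list as a whole was not tested.

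In the TAM axis itself Gas6 was lower and Pros1 slightly higher with cisplatin, and neither passed the limma test. In WT tumours their differences had the same signs, at 0.62 for Pros1 and -0.69 for Gas6. Whether the Pros1 reads of BdP tumours came from tumour or host cells was not tested. Pros1, the deficient gene, remained low and measured 1.61, 1.59, 1.58 and 1.24 FPKM under PBS and 2.39, 2.21, 2.52 and 1.73 FPKM under cisplatin, with no overlap and a difference of 0.36 ± 0.17 (95% interval -0.01 to 0.73). For comparison the WT means were 6.47 ± 2.25 and 10.3 ± 1.74 FPKM (SD, n = 4). Gas6, the other TAM ligand, measured 3.32, 3.18, 5.39 and 4.25 FPKM under PBS and 2.05, 1.24, 1.67 and 2.99 FPKM under cisplatin. All cisplatin tumours were lower (-0.76 ± 0.31, unadjusted p = 0.0253, adjusted p = 1 by limma). Mertk, the receptor of macrophage efferocytosis, measured 3.79, 2.35, 2.26 and 2.50 FPKM under PBS and 2.11, 1.05, 1.99 and 1.82 FPKM under cisplatin and was separated too (-0.44 ± 0.26). Axl spread widely, at 17.6 ± 11.9 FPKM with PBS and 11.9 ± 7.97 FPKM with cisplatin (SD, n = 4). Its difference was -0.60 ± 0.67, and -0.0946 without cisplatin 2, -0.222 without PBS 1 and -0.968 without cisplatin 3. That of Tyro3 was -0.17 ± 0.19, and -0.0795 without PBS 4, -0.103 without cisplatin 2 and -0.283 without cisplatin 1. Ptpn1, which encodes the PTP1B phosphatase that the series is named for, measured 14.2, 17.02, 8.99 and 10.5 FPKM under PBS and 12.1, 12.7, 15.9 and 9.57 FPKM under cisplatin. The difference of 0.01 ± 0.24 had a 95% interval from -0.50 to 0.52. Its sign turned without PBS 3, PBS 4, cisplatin 2 or cisplatin 3 and with array weights.

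In the protein C pathway and coagulation, 13 of 18 listed genes were tested. Each way 2 were separated, beside 2.48% of all genes upward and 1.94% downward. F3, tissue factor, the trigger of coagulation, was separated upward at 0.46 ± 0.20. Tfpi, the inhibitor of tissue factor, was at 0.08 ± 0.13.

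Macrophage genes were lower in 21 of 23 tested (median -0.43), but tumours of both groups overlapped. Only Mertk was separated, downward, beside 1.94% of all genes. Csf1r, the receptor for macrophage growth factor, measured 20.4, 17.2, 6.36 and 7.87 FPKM under PBS and 8.87, 2.41, 19.1 and 11.9 FPKM under cisplatin. Cisplatin 2 was the lowest of all 8 and cisplatin 3 was among the highest (-0.38 ± 0.71). C1qa, a chain of complement C1q, stood at -1.20 ± 0.89 (-0.572 without cisplatin 2, -1.83 without cisplatin 3) and the membrane gene Ms4a7 at -0.81 ± 0.50. Summed FPKM of the listed genes, tested or not, ran from 1420.2 to 3197 under PBS and from 1024 to 2630 under cisplatin. The median was -0.0857 without cisplatin 2, -0.165 without PBS 1, -0.209 without PBS 2, -0.227 with array weights and -0.737 without cisplatin 3. Among markers of macrophage states, M1-like genes had a median of -0.16 and M2-like genes -0.20 over 9 each, with Arg1 at -0.17 ± 1.05, Nos2 at -0.16 ± 0.71 and Tnf at -0.87 ± 0.97. Chil3, a chitinase-like lectin of alternatively activated macrophages and of neutrophils, was higher at 1.49 ± 0.62 with overlap, and stood at 1.48 ± 0.62 in WT tumours.

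Igha, the heavy chain constant region of IgA, had the smallest p of the B and plasma cell genes. It measured 2.18, 2.32, 2.04 and 2.87 FPKM under PBS and 0.0587, 0.764, 0.0354 and 1.32 FPKM under cisplatin. Every cisplatin tumour was lower, with cisplatin 1 and 3 nearly without the transcript (-1.20 ± 0.23, adjusted p = 0.369 by limma). The size depends on the scale at this low level, with -1.83 in TPM, -2.6 with a pseudocount of 0.1 and -3.42 by voom. In WT tumours it went the other way (0.97 ± 0.23), and the interaction was the nearest to a call of any gene, -2.17 ± 0.32 (adjusted p = 0.0795 by limma, and 0.00551 without cisplatin 4). B and plasma cell genes were below 0 in 23 of 24, with a median of -0.64. This did not hold over tumours: the median was 0.0645 without PBS 2 and 0.0384 without cisplatin 1, -0.119 with array weights, -1.21 by voom, and -1.41 without PBS 3 and -1.33 without cisplatin 2. Cd79a, a chain of the B cell receptor, ran from 2.25 to 188 FPKM under PBS and from 0.774 to 169 FPKM under cisplatin. Summed FPKM of the list ran from 93.9 to 2396 under PBS and from 67.0 to 1689 under cisplatin.

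T cell genes showed no direction, with 11 of 20 above 0 and a median of 0.00779 that ranged from -0.516 to 0.538 when single libraries were left out. Cd3e measured 4.22, 6.41, 0.275 and 1.06 FPKM under PBS and 0.399, 3.32, 4.09 and 1.59 FPKM under cisplatin, with PBS 2 highest and PBS 3 lowest. Cytotoxic and NK cell genes had a median of 0.09 over 16, interferon gamma targets 0.09 over 19, type I interferon genes -0.04 over 22, MHC class I genes 0.02 over 18, MHC class II genes -0.06 over 11 and checkpoints -0.10 over 14, with none separated in any of these lists. Each of these medians changed sign when some single library was left out. Trbj1-2, a joining segment of the T cell receptor, was listed at 0 in all 4 PBS tumours and at 1.96, 1.81, 3.93 and 4.76 FPKM under cisplatin (adjusted p = 0.0839 by limma). A segment this short reaches such values with few reads. NF-kB and inflammatory cytokine genes were below 0 in 15 of 16 (-0.37), a median that was -0.103 without PBS 1, -0.212 without cisplatin 2 and -0.227 without cisplatin 1. It was -0.591 without PBS 4, -0.604 without PBS 3 and -0.664 without cisplatin 3. In PBS 1 the cytokine Il1a reached 30.8 FPKM and Nfkbiz, an atypical inhibitor of NF-kB, 37.97 FPKM, against at most 5.92 and 13.3 in the other PBS tumours. Chemokines, at -0.28, turned to 0.126 without cisplatin 2, were -0.0304 without PBS 1 and -0.144 with array weights, and ran from -0.493 to -0.72 without PBS 3, PBS 4, cisplatin 3 or cisplatin 4. The 9 tested neutrophil genes had a median of -0.13, which also changed sign when some single library was left out.

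**Figure D4:**
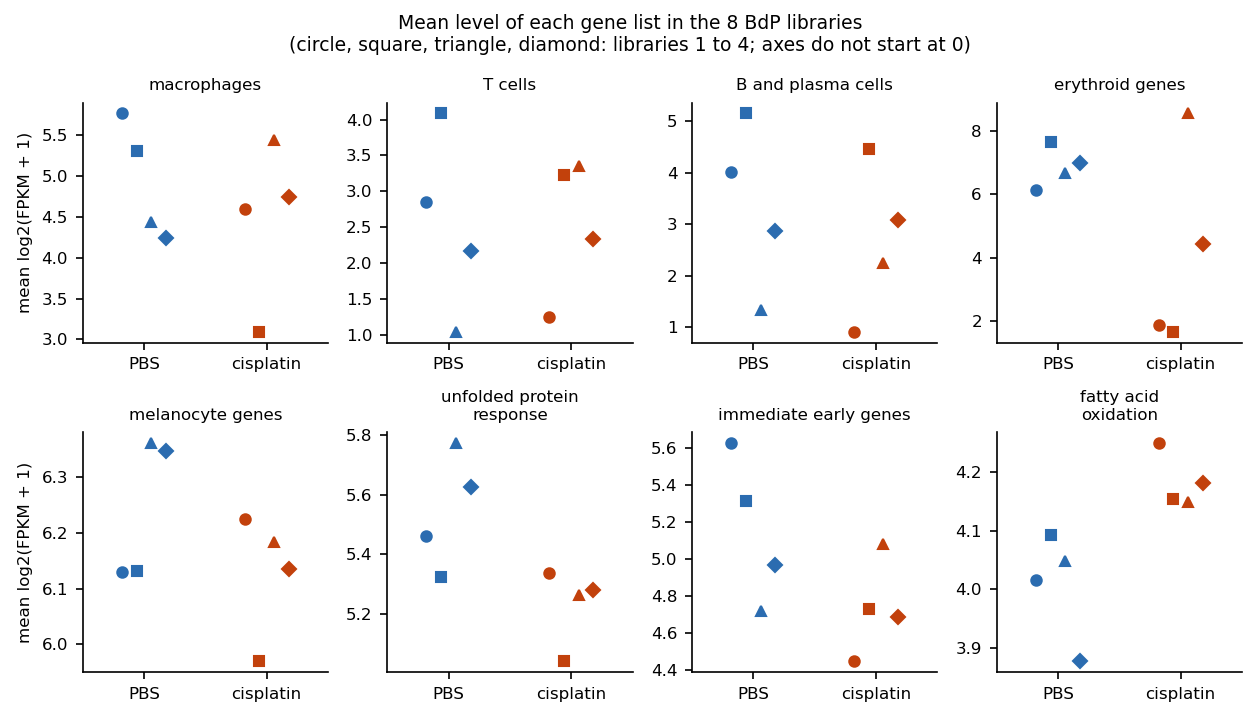
Mean log2(FPKM + 1) over the tested genes of 8 lists in each BdP library, with circle, square, triangle and diamond for libraries 1 to 4; axes do not start at 0. Immune and erythroid lists overlap between treatments; of the 8 lists shown only that of fatty acid oxidation, which was chosen after values were seen, has non-overlapping groups.

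Erythroid transcripts had large differences that were uneven between tumours. Hbb-bs, an adult beta-globin, measured 6841, 31496, 11376 and 16089.6 FPKM under PBS and 14.97, 8.98, 35236 and 802 FPKM under cisplatin. Cisplatin 3 had the highest value of all 8 tumours and cisplatin 1 and 2 had almost none, so the groups overlapped (-5.77 ± 2.19, adjusted p = 1 by limma). Alas2, the erythroid enzyme of heme synthesis, followed the same pattern, from 66.04 to 301 FPKM in the PBS tumours and 0.0522, 0.0903, 499.9 and 10.1 FPKM in cisplatin 1 to 4. The median of 10 tested erythroid genes was -2.34, or -3.74 without cisplatin 3, -3.73 with a pseudocount of 0.1 and -4.87 by voom. Blood in the sample and red cells in the tissue cannot be told apart here.

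Melanocyte genes, which come from the tumour cells, were a little lower in 15 of 22 and higher in 7 (median -0.10). Among the higher genes, Mlana averaged 714.3 FPKM under PBS and 866.8 FPKM under cisplatin, with PBS 3 inside the cisplatin range. Sox10 averaged 134.6 FPKM under PBS and 144.1 FPKM under cisplatin, with overlapping groups. Mitf, the lineage transcription factor, measured 70.9, 55.3, 79.8 and 85.9 FPKM under PBS and 58.8, 40.8, 46.6 and 53.6 FPKM under cisplatin. Only cisplatin 1 reached into the PBS range (-0.53 ± 0.17, unadjusted p = 0.00786). In WT tumours Mitf stood at 0.49 ± 0.17, and the interaction had an adjusted p of 0.835 by limma. Trpm1, a cation channel gene that Mitf regulates, was separated downward at -0.83 ± 0.35 and was at -0.85 ± 0.35 in WT tumours (-0.491 without WT PBS 1). Slc24a5, the melanosomal cation exchanger, stood at -0.49 ± 0.16. The median was -0.0668 without PBS 4, -0.054 without cisplatin 2 and -0.0507 in TPM.

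The cisplatin response of BdP tumours was tested against that of WT tumours gene by gene, and no gene passed. Limma called 0 of 12319 genes (0%), with 691 at an unadjusted p below 0.05, and voom called 1, Slc40a1. After Igha the named genes with the smallest interaction p were Klf11 (BdP -0.70 ± 0.19, WT 0.58 ± 0.19), G0s2, an inhibitor of triglyceride lipase (BdP -0.77 ± 0.27, WT 0.99 ± 0.27), and Mitf, with adjusted p of 0.486, 0.486 and 0.835 by limma. Dnajb9 was lower in BdP and higher in WT tumours (-0.59 ± 0.25 and 0.59 ± 0.25), and Plk1 higher in BdP and lower in WT tumours (0.40 ± 0.13 and -0.19 ± 0.13), both with an interaction adjusted p of 0.835 by limma. Without WT PBS 1 the WT values were 0.296 for Dnajb9 and 0.372 for Klf11. List medians lay on opposite sides of 0 for oxidative phosphorylation (BdP 0.17, WT -0.17), NF-kB genes (-0.37 and 0.36) and B and plasma cells (-0.64 and 0.61). They lay on the same side for p53 targets, macrophages and the unfolded protein response. With single WT libraries left out, an alternative added after seeing the data, the WT medians ran from -0.273 to -0.0955 for oxidative phosphorylation, from 0.232 to 0.794 for NF-kB genes, from 0.106 to 0.959 for B and plasma cells, from 0.122 to 0.338 for p53 targets, from -0.217 to -0.0846 for the unfolded protein response and from -1.05 to 0.0781 for macrophages. Interferon gamma targets were near 0 in BdP and at -0.69 in WT tumours (-1.24 to -0.253 with single WT libraries left out). These contrasts of list medians were not tested.

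**Figure D5:**
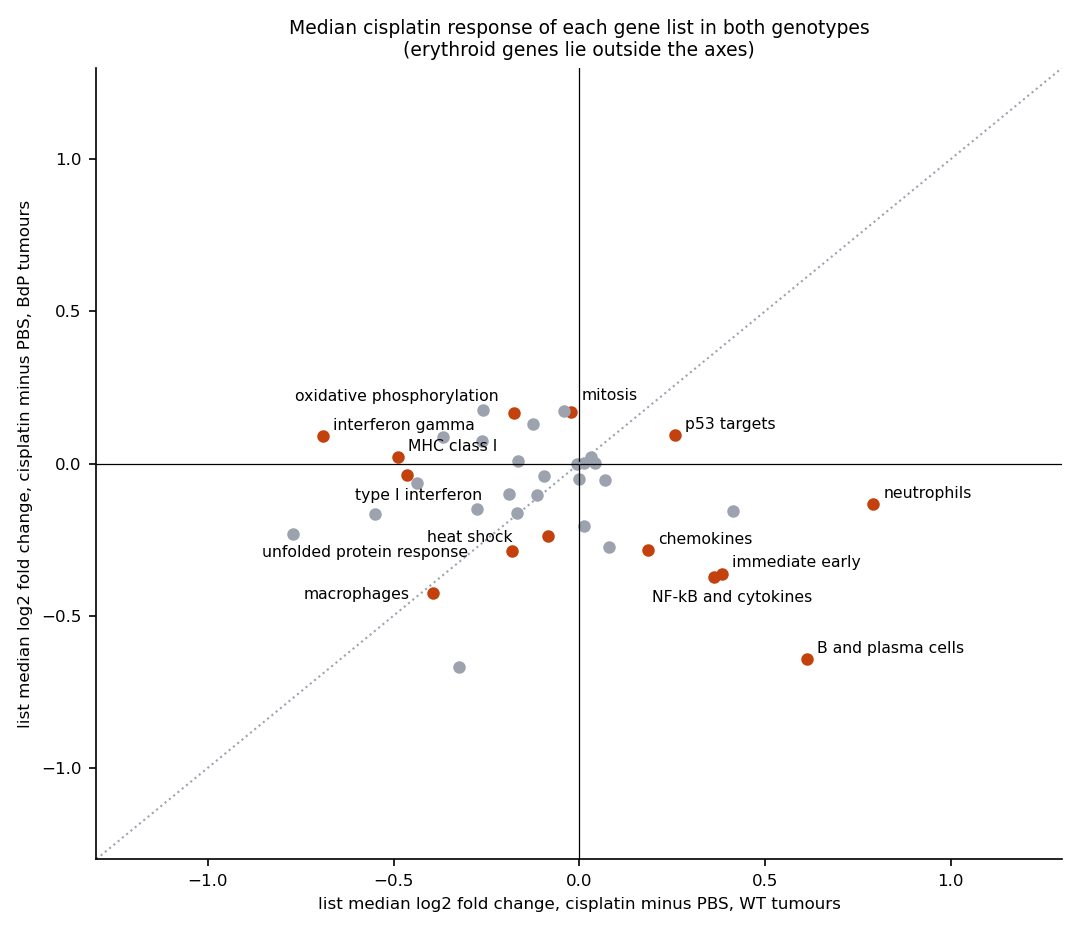
Each point is a gene list, placed by its median log2 fold change with cisplatin in WT tumours (horizontal) and in BdP tumours (vertical); the dotted line marks equal medians. Lists of immediate early, NF-kB, chemokine and B cell genes lie to the lower right, above 0 in WT and below 0 in BdP tumours, while p53 targets are above 0 in both. Without WT PBS 1 the WT medians of immediate early genes and chemokines are -0.121 and -0.0414, and the BdP medians of chemokines (0.126 without cisplatin 2) and B cells (0.0645 without PBS 2, 0.0384 without cisplatin 1) also turn.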

How the data were processed

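Gene expression was measured by RNA sequencing of bulk tumours in 16 libraries, 8 of them from BdP tumours. The authors deposited FPKM values. The submitters' processing notes name CASAVA, HISAT2 2.0.5, featureCounts 1.5.0-p3 and the builds GRCm38 and mm10, with no role or order given. Strand use in counting is not given in the sources used here, so reads of a gene and of an overlapping or antisense partner cannot be told apart. FPKM times gene length came out as whole reads within 0.1 read for 100% of values, which gave the reads per library. For 27 genes whose symbols had become calendar dates, symbols were looked up by identifier.

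A gene was kept where 4 or more of the 16 libraries reached 1 FPKM (12319 of 54532). Group means of log2(FPKM + 1), a pseudocount of 1, were fitted to the 16 libraries in limma 3.58.1, under R 4.3.3, with a mean-variance trend and Benjamini-Hochberg adjustment at 0.05, giving cisplatin against PBS in BdP tumours and its difference from WT tumours. The fit was tested on simulated data. Gene lists were described by counts and medians, with no test. The genes named were protein-coding genes averaging 5 FPKM or more where they were higher, the 12 of smallest p each way, plus up to 4 members of smallest p and each separated member at 1 FPKM or more from the lists described, and Pros1, Gas6, Tyro3, Axl, Mertk and Ptpn1; other list members, markers, Creld2, Stxbp3-ps and Trbj1-2 were chosen after their values were seen. Some genes that the rule names are not reported here. The comparison, lists and members were chosen with earlier results of these data known. Alternatives were a pseudocount of 0.1, no filter, TMM scaling, TPM, array weights, a replicate block, fits on the 8 BdP libraries, omission of each library, voom on recovered reads and, for WT list medians, omission of each WT library (the last 2 added after seeing the data).

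Promoters were read from RefSeq (GRCm38.p6), which held 8884 of the 12319 genes by symbol.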

Additional observations from a re-analysis of the deposited data

Results flagged for a closer look

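In 21 of 308 groups of 4 libraries checked, 1 library stood apart from the other 3 by more than Dixon's critical share of the group's range at 95%. Chance alone flags about 1 in 20 groups.

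PBS 1 was the library set apart for several inflammatory and stress genes. Il1a, the cytokine interleukin 1 alpha, was at 30.8 FPKM in PBS 1 and at 4.66 to 5.92 FPKM in the other 3. Nfkbiz was at 37.97 FPKM in PBS 1 and at 11.1 to 13.3 FPKM in the other 3. Nr4a1, an orphan nuclear receptor, was at 99.7 FPKM in PBS 1 and at 56.9 to 58.9 FPKM in the other 3. Dnajb4, an HSP40 cochaperone, was at 4.57 FPKM in PBS 1 and at 2.69 to 2.82 FPKM in the other 3. The mean log2(FPKM + 1) of the p53 target list was 3.34 in PBS 1 and 3.15 to 3.17 in the other 3.

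Among the other PBS libraries the values set apart were S100a9 at 27.7 FPKM in PBS 2 (others 10.96 to 12.5), Mre11a at 5.74 FPKM in PBS 2 (others 4.88 to 5.01), Dnajb9 at 21.4 FPKM in PBS 2 (others 27.7 to 28.8), Csf3r at 1.42 FPKM in PBS 3 (others 2.85 to 2.99), Slc25a33 at 8.12 FPKM in PBS 3 (others 6.33 to 6.57), Zmat3 at 5.70 FPKM in PBS 4 (others 4.16 to 4.38) and Pros1 at 1.24 FPKM in PBS 4 (others 1.58 to 1.61). Under cisplatin they were Atp5a1 at 475 FPKM in cisplatin 1 (others 422 to 427), Pgk1 at 2268 FPKM in cisplatin 1 (others 2004 to 2023), Jak2 at 7.78 FPKM in cisplatin 1 (others 8.93 to 9.11), P4ha2 at 6.82 FPKM in cisplatin 2 (others 9.70 to 10.2), Il1rn at 1.46 FPKM in cisplatin 2 (others 10.3 to 13.9), Cryab at 85.4 FPKM in cisplatin 3 (others 113 to 116) and 1810055G02Rik at 6.24 FPKM in cisplatin 4 (others 6.98 to 7.10). The list means set apart under cisplatin were those of the Bcl2 family, 3.27 in cisplatin 3 against 2.92 to 2.98, and of senescence and secretory genes, 2.89 in cisplatin 2 against 3.62 to 3.69.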

How the results depend on the processing

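Among 36 list medians, 282 of 288 values under other settings and 574 of 576 with 1 library left out moved by less than the spread between replicates, and 111 of 119 named genes never changed sign. These counts include alternatives that cannot change a BdP fold change: omission of a WT library, the replicate block and the fit on the 8 BdP libraries. The count of called genes in BdP tumours was 0 with TMM scaling, the replicate block, fits on the 8 BdP libraries and voom, and 1 with a pseudocount of 0.1 (Stxbp3-ps), with no filter (Rpl17-ps4) and with array weights (Stxbp3-ps). In TPM it was 5, where the haemoglobin genes Hbb-bs, Hba-a1 and Hba-a2, at -5.75, -5.57 and -5.76, and the segments Trbj1-2 and Trbj2-1 passed. With single libraries left out it ran from 0 to 1, where it was Stxbp3-ps without WT PBS 2 and Trbj1-2 without WT cisplatin 4. The genotype difference gave 1 call by voom and 0 to 1 with single libraries left out (1810012K08Rik without WT PBS 4, Igha without BdP cisplatin 4). Genes separated upward numbered 75 and downward 54 in TPM, which shifts the median of all genes to 0.0507. With 1 BdP library left out they numbered 366 to 751 and 359 to 788, since fewer libraries separate more easily. List medians that moved were adipocytes (-1.16 with a pseudocount of 0.1, -1.31 by voom), crosslink and excision repair (0.057 in TPM, -0.0495 with array weights), erythroid genes (-4.87 by voom) and endothelial genes (-0.416 by voom, -0.327 to 0.108 with single libraries left out). The causes were not tested.

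With array weights Cd5 turned to 0.0159 and Ptpn1 to -0.0193. With single libraries left out signs turned for Clec4d (-0.846 to 0.0151), S100a9 (-0.406 to 0.0517), Tcf7 (-0.255 to 0.762), Cd247 (-0.149 to 0.544), Cd5 (-0.705 to 0.313), Icos (-0.34 to 0.525), Cxcl10 (-0.345 to 0.0935) and Ptpn1 (-0.13 to 0.154). Deviations of same-numbered libraries correlated at -0.17, 0.24, -0.24 and 0.13, inside the range of other pairs (-0.49 to 0.54). The replicate block left the calls at 0, the count without it. Neither result can decide whether same-numbered samples were paired, since 4 correlations are few and the calls could not fall. The planned edgeR and DESeq2 fits on recovered reads were not run, because the deposited unit is FPKM. With 1 BdP library left out, 37 of 119 named genes and 34 of 36 list medians moved by over 1.5 times or turned, so single values at 4 tumours a group are imprecise. Of 69 named genes that were separated, 60 were separated the same way after TMM scaling and 15 in TPM.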

Other observations

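Mitochondrial metabolism beyond the respiratory chain was looked at because Hadha, Got2 and Immt were among the genes of smallest p, so the lists here were chosen after values were seen and their counts are descriptions. Of 18 genes of the tricarboxylic acid cycle 17 were above 0, with a median of 0.19, and 6 were separated upward, beside 2.48% of all genes. Mdh2, the mitochondrial malate dehydrogenase, measured 108, 129.5, 117 and 87.8 FPKM under PBS and 148, 144, 141 and 143 FPKM under cisplatin (0.39 ± 0.12). Cs, the citrate synthase, measured 40.4, 41.7, 38.4 and 37.5 FPKM under PBS and 49.3, 45.04, 43.9 and 43.2 FPKM under cisplatin (0.20 ± 0.09). In neither did a cisplatin tumour fall within the PBS range. Ogdh (0.35 ± 0.21), Dlst (0.19 ± 0.08) and Fh1 (0.26 ± 0.13) were separated as well. In WT tumours the median of the list was -0.06, with Mdh2 at -0.05 ± 0.12, and the median ran from -0.139 to -0.00262 with single WT libraries left out. None of the genes of this list, of fatty acid oxidation or of cristae organisation was separated in TPM.

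Fatty acid oxidation genes were above 0 in 17 of 18, with a median of 0.17. Beside 2.48% of all genes, 5 of them were separated upward, among them the acyl-CoA dehydrogenases Acadl (0.20 ± 0.10) and Acads (0.36 ± 0.21). The mean log2(FPKM + 1) of the list ran from 3.88 to 4.09 under PBS and from 4.15 to 4.25 under cisplatin, without overlap. Genes of cristae organisation and the mitochondrial membrane were above 0 in 17 of 20, with a median of 0.15. Beside the same 2.48%, 4 were separated upward, and 2 after TMM scaling. List means were 4.65 to 4.92 under PBS and 4.93 to 4.97 under cisplatin. The large subunit of the mitochondrial ribosome had a median of 0.05 over 48 genes and none separated. The 26S proteasome had a median of 0.09 over 31 genes, with 2 separated upward, beside the same 2.48%. In collagen processing, chosen because of Pcolce, 7 of 15 genes were above 0 and the median was -0.105.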
